A study of Mus musculus with 9 samples.

Results

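Oxygen sensing and sugar breakdown were followed through 42 genes of the hypoxia response and glycolysis in endothelium of the fetal mouse heart. The genes were picked by name, with earlier results of these data known. They were transcription factors of the hypoxia-inducible factor (HIF) family, the enzymes that mark them for destruction, known HIF targets, and the enzymes and transporters of glycolysis. All 42 were found among the 41214 features of the deposited expected-count table, and all 42 passed the filter on low counts that left 17103 genes for testing. The 9 libraries came from ventricles at E17.5 (days of embryonic development), with 3 replicates of each of 3 sorted populations. Every embryo carried R26(tom/+), the Tomato reporter, with Nes-CreER(Tg/0) and Nes-Gfp(Tg/0), so that Nes regulatory sequences drove both the inducible Cre and the green reporter, and 0.1 µg tamoxifen had been given at E15.5. The endocardial population, enriched for the inner lining of the chambers, was gated as viable Ter119-, CD45-, CD31+ and GFP+, and its gate as written names no Emcn or Tomato condition. The arterial population, enriched for intramyocardial arteries and capillaries, was in addition Emcn-low and Tomato+. The venous population, enriched for subepicardial veins, was Emcn-low, Tomato- and GFP-low. Coronary is used here for the 3 arterial and 3 venous libraries as 1 group. Each population is an enriched sort and can hold other endothelial cells, and the labels do not give how many hearts went into a library.

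HIF factors are pairs of an alpha subunit (from Hif1a, Epas1 or Hif3a) and the constant partner made by Arnt. When oxygen is plentiful, the prolyl hydroxylases of the Egln genes tag the alpha subunits, and the product of Vhl then binds them for degradation; when oxygen is scarce the alpha subunits last longer and switch on targets that include glycolytic enzymes, the glucose transporter Slc2a1 and the hydroxylases Egln1 and Egln3 themselves. Endothelial cells are known for relying on glycolysis for much of their energy, and glycolytic flux through the regulator Pfkfb3 is known to be needed for vessel sprouting.

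Levels are given in CPM (counts-per-million on scaled library sizes), and always in the order of replicates 1, 2 and 3. Library totals ran from 12750553 to 19474419 counts. Differences are log2 fold changes, each with its standard error (SE), from edgeR's quasi-likelihood test with Benjamini-Hochberg adjustment over all 17103 genes, and a gene was called at an adjusted p under 0.05. The labels do not say that replicates were separate animals or pools, so a p-value sets a difference against the variation among these libraries only, and that variation may be technical. In bulk samples of this kind, fewer cells of a type and less RNA per cell cannot be told apart. The 8 endothelial markers (Pecam1 and Cdh5 among them) summed to 3452 to 4531 CPM in endocardial libraries, 5214 to 7201 CPM in arterial libraries and 4955 to 6402 CPM in venous libraries. The 8 endocardial markers (Npr3, Plvap and the gated Emcn among them) summed to 4431 to 5434 CPM in endocardial libraries, 246 to 338 CPM in arterial libraries and 407 to 516 CPM in venous libraries. Endocardial replicate 1 stood apart from its group, with 21101 features above 0 against 17337 and 17130 in replicates 2 and 3. The coronary libraries had from 18462 (venous replicate 3) to 21221 (arterial replicate 1), so endocardial replicate 1 lay within their range and the other endocardial libraries below it. Without endocardial replicate 1, the endocardial minus coronary log2 fold change of 20 of the 42 genes moved by over 1.5 times or changed sign (Vhl, Pfkl and Eno2), and 0 of these 20 were called by edgeR with all libraries.

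In endocardial libraries, 10 of the 42 genes were lower than in coronary libraries and 0 were higher at an adjusted p under 0.05 by edgeR. Among all genes tested, 7.00% were called lower and 6.91% higher in this comparison. The 42 genes were chosen with earlier results of these data known, so these shares are set beside them as description only. At an unadjusted p under 0.05 in either direction, 21 of the 42 genes passed, as did 4208 of all 17103 genes tested. Hif3a and P4ha2 were among the 21 as higher. DESeq2 called 1 gene higher, Hif3a. With the batch as a block in the edgeR fit, 15 genes were lower and 1 was higher, which was Hif3a (adjusted p = 3.5e-06). That fit also called more of all genes, 2722 in either direction against 2379 without the block. The 10 genes were the hydroxylases Egln1 and Egln3, the HIF targets Ankrd37, Bnip3 and Adm, and the glycolytic genes Gpi1, Pfkp, Tpi1, Eno1 and Pkm. The log2 fold change was below 0 for 32 of the 42 genes and above 0 for 10. Over all 17103 genes tested it was below 0 for 7786 and above 0 for 9317. The median was -0.37 over the 42 genes and 0.08 over all genes tested. In 12 of the 42 genes all 3 endocardial libraries lay below all 6 coronary libraries, which held for 9.08% of all genes tested; the 12 were the 10 called genes with Aldoa and Slc16a3. Within every one of the 3 batches the endocardial library was the lowest of its batch for 22 of the 42 genes, against 13.9% of all genes. It was the highest in every batch for 1 gene, Hif3a, against 13.0% of all genes. The summed level of the 42 genes was 2459, 3375 and 3489 CPM in endocardial libraries, 3613, 4890 and 4360 CPM in arterial libraries and 3657, 5079 and 4601 CPM in venous libraries, so that the endocardial sums all lay below the coronary ones.

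**Figure D1:**
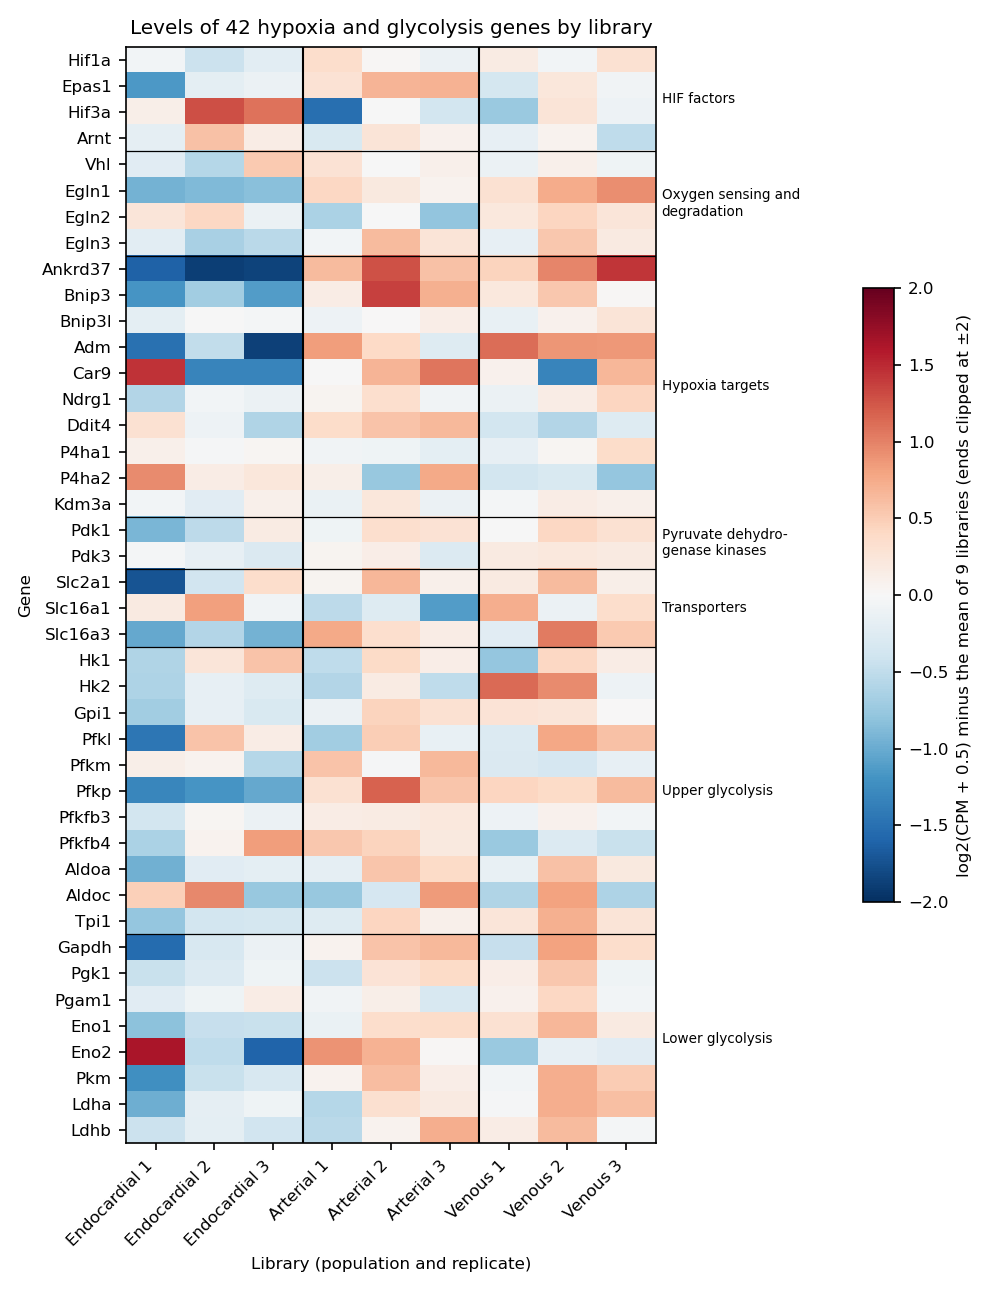
Heat map of the 42 genes (rows, ordered by role) in the 9 libraries (columns); colour is the log2(CPM + 0.5) of a library minus the gene's mean over the 9 libraries, with ends clipped. The 3 endocardial columns are blue for Egln1, Ankrd37, Bnip3, Adm, Pfkp and Eno1, and Hif3a is reddest in endocardial replicates 2 and 3.

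Markers of other states and cell types moved with the same contrast. All 6 capillary markers (Fabp4, Cd36 and others) were called lower in endocardial libraries, with sums of 481 to 532 CPM in endocardial libraries, 4218 to 4833 CPM in arterial libraries and 3833 to 5007 CPM in venous libraries. Of 10 proliferation genes 8 were called lower, and their sums were 1173 to 1367 CPM in endocardial libraries, 2377 to 3496 CPM in arterial libraries and 3208 to 4216 CPM in venous libraries. Of 10 immediate-early genes, which respond to dissociation among other stimuli, 4 were called higher, and their sums were 3014 to 3823 CPM in endocardial libraries, 2018 to 2417 CPM in arterial libraries and 1740 to 1956 CPM in venous libraries. The 7 erythroid genes summed to 68.2 to 241 CPM in endocardial libraries, 538 to 1212 CPM in arterial libraries and 226 to 382 CPM in venous libraries, with 1 of the 7 called lower. Fibroblast markers, of which 6 of 10 were called higher, summed to 1617 to 1965 CPM in endocardial libraries, 105 to 121 CPM in arterial libraries and 1415 to 1659 CPM in venous libraries. Of 13 cardiomyocyte markers tested 3 were called higher, and the list summed to 524 to 636 CPM in endocardial libraries, 282 to 412 CPM in arterial libraries and 420 to 586 CPM in venous libraries. Of 5 epicardial markers tested 1 was called lower, and the list summed to 24.9 to 31.2 CPM in endocardial libraries, 182 to 211 CPM in arterial libraries and 148 to 181 CPM in venous libraries. Of 9 mural markers 1 was called higher and 2 lower, and the list summed to 51.6 to 86.5 CPM in endocardial libraries, 120 to 171 CPM in arterial libraries and 67.4 to 83.2 CPM in venous libraries. Leukocyte markers, with 0 of 6 tested called by edgeR or at an unadjusted p under 0.05, summed to 12.1 to 21.9 CPM in endocardial libraries, 6.91 to 26.6 CPM in arterial libraries and 6.42 to 11.9 CPM in venous libraries. No marker was at 0 in all 9 libraries. The part of these markers in the results on the 42 genes was not tested.

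The HIF factors themselves split by member. Epas1 (ENSMUSG00000024140, chr17:86753700-86833410, plus strand; GRCm38 here and below), which encodes the alpha subunit best known from endothelium, stood at 180, 352 and 369 CPM in endocardial libraries, 489, 645 and 650 CPM in arterial libraries and 316, 469 and 382 CPM in venous libraries. All 3 endocardial libraries lay below all 3 arterial ones, while they overlapped the venous ones. Epas1 had a log2 fold change of -0.99 (SE 0.25, adjusted p = 0.0194) for endocardial minus arterial and -0.68 (SE 0.22, adjusted p = 0.0592) for endocardial minus coronary libraries. With the batch as a block the coronary comparison of Epas1 passed, at -0.73 (SE 0.14, adjusted p = 0.00112), and DESeq2 also called it (adjusted p = 0.0187). The arterial comparison lost its call when 1 arterial library was left out, with adjusted p-values of 0.110 without arterial replicate 2 and 0.113 without arterial replicate 3. Within batches the endocardial minus coronary difference of Epas1 was -1.12, -0.64 and -0.43, and endocardial replicate 1 was the lowest of the 9 libraries; without it the log2 fold change was -0.42 (adjusted p = 0.122).

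Hif1a, the alpha subunit found in nearly all cells, stood at 256, 198 and 231 CPM in endocardial libraries, 342, 272 and 246 CPM in arterial libraries and 300, 257 and 328 CPM in venous libraries. Endocardial and arterial values overlapped and endocardial replicate 1 lay just under the lowest venous library. The endocardial minus coronary log2 fold change of -0.35 (SE 0.15, adjusted p = 0.157) did not pass. Hif3a (ENSMUSG00000004328, chr7:17031507-17062427, minus strand), which encodes an alpha subunit with splice forms known to restrain the other HIF factors, went the other way. Its levels were 106, 242 and 210 CPM in endocardial libraries, 34.2, 97.3 and 76.4 CPM in arterial libraries and 58.4, 117 and 91.3 CPM in venous libraries. Endocardial replicate 1 overlapped the venous libraries, and replicate 1 was the lowest of its population in all 3 populations. Hif3a was above coronary libraries by a log2 fold change of 1.24 (SE 0.38, adjusted p = 0.0682), which did not pass, and with the batch as a block it passed at 1.25 (SE 0.14, adjusted p = 3.5e-06). Inside the batches the difference was 1.24, 1.18 and 1.32. Without endocardial replicate 1 the value was 1.52 (adjusted p = 0.0386). Arnt, the shared partner, had 50.3, 85.3 and 62.8 CPM in endocardial libraries, 45.8, 68.1 and 60.4 CPM in arterial libraries and 50.8, 59.6 and 39.8 CPM in venous libraries, with a log2 fold change of 0.29 (SE 0.20, adjusted p = 0.434) and full overlap of the populations.

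Scaled by exon length, Epas1 was the most abundant of the 4 factors in each population, at 53.7 CPM per kb in endocardial, 106 in arterial and 69.6 in venous libraries. Hif1a followed at 38.7 CPM per kb in endocardial, 48.6 in arterial and 50.02 in venous libraries. Hif3a had 27.7 CPM per kb in endocardial, 10.3 in arterial and 13.2 in venous libraries, and Arnt had 8.26, 7.25 and 6.25 in the same populations. Epas1 thus exceeded Hif1a by the widest margin in the arterial libraries, as a level per kb and not as a tested difference.

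Of the genes that destroy HIF factors, Egln1 and Egln3 were lower in endocardial libraries, while Egln2 and Vhl were not called. Egln1 (ENSMUSG00000031987, chr8:124908587-124949324, minus strand), whose product is the main oxygen-dependent HIF hydroxylase of most cells, stood at 74.4, 78.0 and 81.0 CPM in endocardial libraries, 193, 165 and 152 CPM in arterial libraries and 179, 242 and 277 CPM in venous libraries. The 3 endocardial values were close together, at 77.8 ± 3.29 CPM (SD, n = 3), and none came near a coronary library. Egln1 was 2.55-fold lower than in coronary libraries, at a log2 fold change of -1.35 (SE 0.17, adjusted p = 2.1e-05), and the within-batch differences were -1.31, -1.35 and -1.33. Egln3, which encodes a hydroxylase strongly induced by HIF in many cells, stood at 47.1, 34.7 and 37.3 CPM in endocardial libraries, 52.7, 84.8 and 65.7 CPM in arterial libraries and 48.6, 79.8 and 62.0 CPM in venous libraries. Endocardial replicate 1 came within a small distance of venous replicate 1, without overlap. Egln3 had a log2 fold change of -0.72 (SE 0.21, adjusted p = 0.0291), and the within-batch differences were -0.10, -1.23 and -0.77. The call of Egln3 was lost when single libraries were left out, with adjusted p-values of 0.136 without endocardial replicate 2, 0.102 without endocardial replicate 3, 0.0782 without arterial replicate 2 and 0.0773 without venous replicate 2. Vhl had 18.5, 14.6 and 31.4 CPM in endocardial libraries, 26.7, 21.7 and 23.5 CPM in arterial libraries and 20.0, 23.5 and 20.6 CPM in venous libraries, which overlapped, with a log2 fold change of -0.07 (SE 0.26, adjusted p = 0.920). Egln2 ranged over 14.1 to 20.8 CPM in endocardial libraries, 8.75 to 15.4 CPM in arterial libraries and 18.0 to 21.0 CPM in venous libraries, and its log2 fold change was 0.27 (adjusted p = 0.630).

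**Figure D2:**
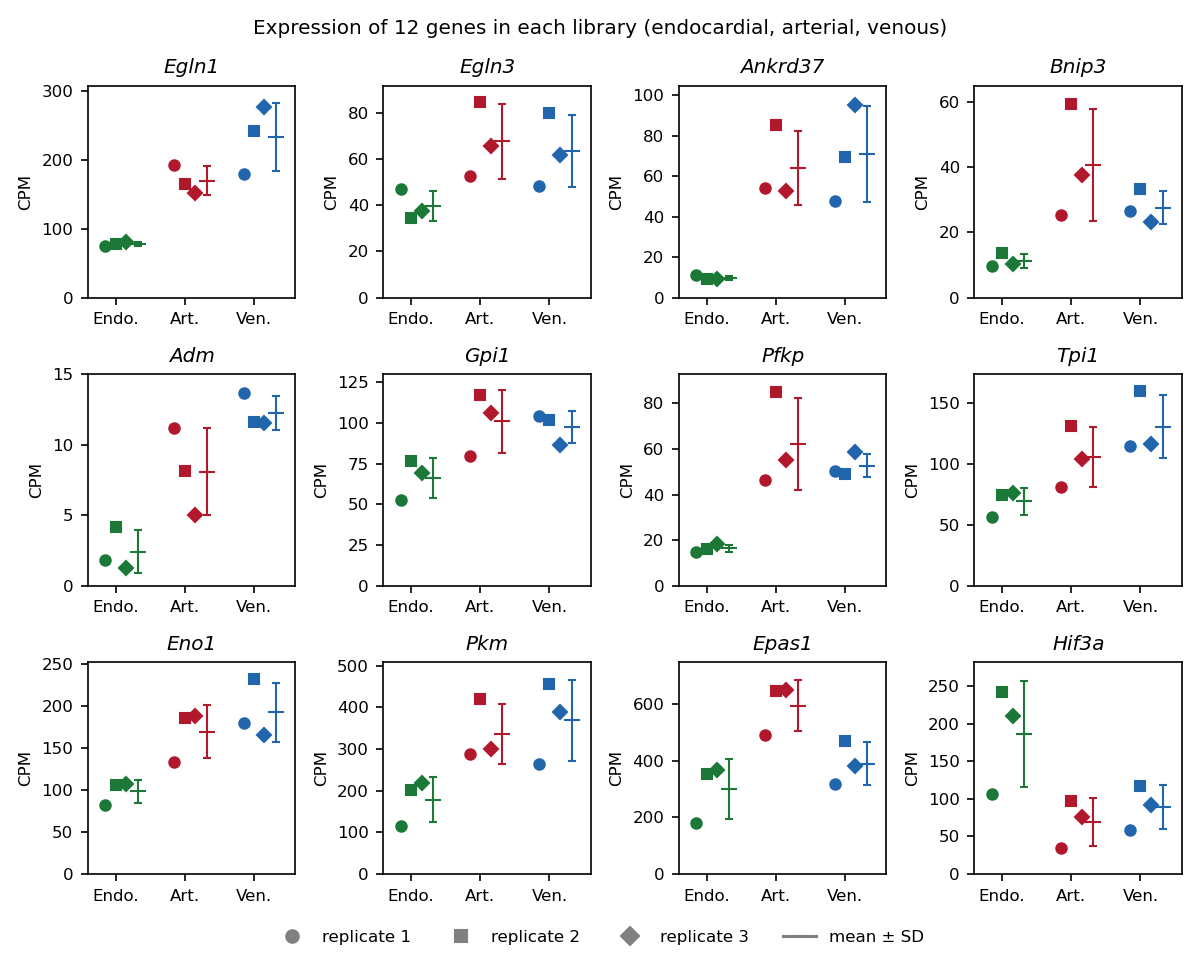
Expression of 12 genes in CPM (vertical axes start at 0) in endocardial, arterial and venous libraries; each symbol is 1 library, its shape gives the replicate, and the line beside the symbols is the mean ± SD of 3 libraries. For the 10 genes from Egln1 to Pkm every endocardial symbol lies below every coronary one, for Epas1 and Hif3a they overlap.

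Among the 10 HIF targets, Ankrd37, Bnip3 and Adm were lower in endocardial libraries and 7 were not called. Ankrd37 (ENSMUSG00000050914, chr8:45996902-46005707, minus strand) encodes an ankyrin repeat protein known as a direct HIF target and showed the largest difference of the 42 genes. It stood at 11.1, 9.15 and 9.30 CPM in endocardial libraries, 54.4, 85.2 and 52.9 CPM in arterial libraries and 48.0, 69.5 and 95.2 CPM in venous libraries. The lowest coronary library was thus several times above the highest endocardial one. The gene was 6.85-fold lower in endocardial than in coronary libraries, at a log2 fold change of -2.78 (SE 0.27, adjusted p = 1.2e-06), and the differences inside batches were -2.16, -3.00 and -2.87. Bnip3 (ENSMUSG00000078566, chr7:138890836-138909519, minus strand), which encodes a receptor for the removal of mitochondria, stood at 9.78, 13.8 and 10.2 CPM in endocardial libraries, 25.3, 59.3 and 37.6 CPM in arterial libraries and 26.4, 33.2 and 23.1 CPM in venous libraries. Its groups did not overlap, with arterial replicate 2 the highest, and the log2 fold change was -1.57 (SE 0.29, adjusted p = 0.00103). Adm (ENSMUSG00000030790, chr7:110627661-110629820, plus strand) encodes adrenomedullin, a peptide hormone that acts on endothelial cells, and was scarce in every library. It stood at 1.83, 4.18 and 1.29 CPM in endocardial libraries, 11.2, 8.12 and 5.00 CPM in arterial libraries and 13.7, 11.6 and 11.5 CPM in venous libraries. Endocardial replicate 2 came close to arterial replicate 3 without reaching it. Adm was 4.09-fold lower than in coronary libraries, at a log2 fold change of -2.03 (SE 0.48, adjusted p = 0.00810). The calls of Egln1, Ankrd37, Bnip3 and Adm against coronary libraries were kept whichever of the 9 libraries was left out.

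The other 7 HIF targets did not pass the test. Bnip3l, a relative of Bnip3 with a like role, ranged over 176 to 201 CPM in endocardial libraries, 187 to 221 CPM in arterial libraries and 182 to 241 CPM in venous libraries, with a log2 fold change of -0.12 (SE 0.14, adjusted p = 0.680). Per kb of exon, Bnip3l exceeded Bnip3 in each population, at 49.5 against 4.96 CPM per kb in endocardial and 52.8 against 18.0 CPM per kb in arterial libraries. Ndrg1, a stress-responsive gene, had a log2 fold change of -0.38 (SE 0.17, adjusted p = 0.167), and Kdm3a, a histone demethylase, had -0.09 (SE 0.15, adjusted p = 0.813). P4ha1, a collagen prolyl hydroxylase, had a log2 fold change of 0.05 (SE 0.16, adjusted p = 0.901). Its relative P4ha2 stood at 56.5, 32.4 and 34.1 CPM in endocardial libraries, 31.8, 17.1 and 49.9 CPM in arterial libraries and 22.5, 23.6 and 16.8 CPM in venous libraries. Endocardial replicate 1 of P4ha2 was the highest of the 9, and the log2 fold change was 0.64 (SE 0.29, adjusted p = 0.189), with a call (adjusted p = 0.0424) when arterial replicate 3 was left out. Without endocardial replicate 1, P4ha2 had 0.34 (adjusted p = 0.537). Ddit4, whose product restrains the growth kinase mTOR, had a log2 fold change of -0.15 (adjusted p = 0.751). Car9, a carbonic anhydrase of the cell surface often used as a hypoxia marker, was listed at 2.90, 0 and 0 CPM in endocardial libraries, 0.737, 1.497 and 2.13 CPM in arterial libraries and 0.828, 0 and 1.49 CPM in venous libraries. Only low values of Car9 were seen in any library, and no difference was detectable at this depth.

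Promoter sequence of the 5 called genes with the largest falls and of Hif3a, the gene with the highest log2 fold change, is shown because HIF factors bind a short core motif. The 250 bases before the RefSeq start of each gene were read on the gene's strand (RefSeq, GRCm38.p6), 5′ to 3′. Capitals mark the HIF core ACGTG and the related GCGTG, each on either strand; both can overlap, as in CACGTG, which is ACGTG on both strands.
Ankrd37 (chr8:45999851-46000100, minus strand): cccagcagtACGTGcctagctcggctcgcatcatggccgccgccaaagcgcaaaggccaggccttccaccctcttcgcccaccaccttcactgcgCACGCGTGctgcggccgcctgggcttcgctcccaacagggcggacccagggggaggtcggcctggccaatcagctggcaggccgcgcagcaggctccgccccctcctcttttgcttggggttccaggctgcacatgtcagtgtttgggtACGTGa
Adm (chr7:110627407-110627656, plus strand): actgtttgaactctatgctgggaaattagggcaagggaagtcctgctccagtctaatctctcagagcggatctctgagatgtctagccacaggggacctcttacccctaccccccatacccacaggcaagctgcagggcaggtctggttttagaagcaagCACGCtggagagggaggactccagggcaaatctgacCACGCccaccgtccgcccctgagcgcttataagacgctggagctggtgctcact
Pfkp (chr13:6648772-6649021, minus strand): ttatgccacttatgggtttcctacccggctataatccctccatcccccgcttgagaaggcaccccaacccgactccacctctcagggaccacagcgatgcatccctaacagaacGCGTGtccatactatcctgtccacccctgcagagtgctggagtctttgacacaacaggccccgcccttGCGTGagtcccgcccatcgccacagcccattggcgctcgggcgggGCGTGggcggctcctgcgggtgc
Bnip3 (chr7:138909507-138909756, minus strand): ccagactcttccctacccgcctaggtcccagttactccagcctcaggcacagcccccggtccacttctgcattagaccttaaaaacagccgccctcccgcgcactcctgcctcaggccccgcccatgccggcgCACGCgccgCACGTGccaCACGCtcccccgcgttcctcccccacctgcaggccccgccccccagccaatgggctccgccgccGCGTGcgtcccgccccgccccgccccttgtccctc
Egln1 (chr8:124949255-124949504, minus strand): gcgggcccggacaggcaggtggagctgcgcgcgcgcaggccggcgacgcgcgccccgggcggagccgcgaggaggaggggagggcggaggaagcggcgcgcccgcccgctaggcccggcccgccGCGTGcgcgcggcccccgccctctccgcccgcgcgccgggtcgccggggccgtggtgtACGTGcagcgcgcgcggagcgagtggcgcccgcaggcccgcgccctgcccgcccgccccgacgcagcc
Hif3a (chr7:17062428-17062677, minus strand): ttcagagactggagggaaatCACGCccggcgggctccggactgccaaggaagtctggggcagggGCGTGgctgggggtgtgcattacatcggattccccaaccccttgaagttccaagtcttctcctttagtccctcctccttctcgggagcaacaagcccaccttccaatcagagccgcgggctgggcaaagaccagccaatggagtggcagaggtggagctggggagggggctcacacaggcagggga
Of the 6 windows, those of Ankrd37, Bnip3 and Egln1 hold ACGTG, and all 6 hold GCGTG. Over all 32851 promoter windows of this length, 16.6% hold ACGTG, 28.2% hold GCGTG and 38.6% hold either. Promoter windows were present for 39 of the 42 genes, and ACGTG was found in 22 of these 39, GCGTG in 27 and either in 35, counting a gene with several starts once. Counted by window, ACGTG was in 25 of 55, GCGTG in 32 of 55 and either in 44 of 55. Bnip3l, Epas1 and Ndrg1 were not matched. A match is a description of the letters and not a binding site, and the genes were chosen as a known HIF set.

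Transporters and the kinases that close the entry of pyruvate into mitochondria were not called in endocardial against coronary libraries. This holds for the edgeR fit of all 9 libraries with the filter and no block. Slc2a1, the glucose carrier GLUT1, stood at 7.87, 20.7 and 35.0 CPM in endocardial libraries, 28.4, 43.5 and 29.2 CPM in arterial libraries and 31.1, 42.6 and 29.8 CPM in venous libraries. Endocardial replicate 1 was the lowest of all 9 libraries and endocardial replicate 3 lay within the coronary range. Slc2a1 did not pass, at a log2 fold change of -0.68 (SE 0.37, adjusted p = 0.301); the within-batch values were -1.85, -1.04 and 0.25, and without endocardial replicate 3 the gene was called at -1.26 (adjusted p = 0.0302). Without endocardial replicate 1, the value of Slc2a1 was -0.30 (adjusted p = 0.539). The lactate carrier Slc16a3, listed at 1.53, 2.23 and 1.63 CPM in endocardial libraries, 6.41, 4.67 and 4.04 CPM in arterial libraries and 3.02, 7.90 and 5.38 CPM in venous libraries, was scarce throughout. Its endocardial values lay below all coronary ones, with a log2 fold change of -1.54 (SE 0.59, adjusted p = 0.106) by edgeR; DESeq2 called it lower, at -1.52 (adjusted p = 0.0241). Slc16a1, a second carrier of lactate and pyruvate, had a log2 fold change of 0.50 (SE 0.33, adjusted p = 0.406). Pdk1 ranged over 29.9 to 64.1 CPM in endocardial libraries, 53.4 to 72.3 CPM in arterial libraries and 56.6 to 76.1 CPM in venous libraries, with a log2 fold change of -0.58 (SE 0.23, adjusted p = 0.114) and, with the batch as a block, -0.62 (SE 0.18, adjusted p = 0.0247). Without endocardial replicate 1, Pdk1 had -0.36 (adjusted p = 0.322). It was called by edgeR with no filter on low counts (adjusted p = 0.0342) and without endocardial replicate 3, at -0.94 (adjusted p = 0.011). Pdk3 had a log2 fold change of -0.26 (SE 0.31, adjusted p = 0.696).

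In the upper part of glycolysis, which spends ATP to split the sugar, 3 of 11 genes were lower in endocardial libraries. Pfkp (ENSMUSG00000021196, chr13:6579768-6648777, minus strand), 1 of 3 genes for the phosphofructokinase that commits sugar to the pathway, stood at 14.8, 16.2 and 18.1 CPM in endocardial libraries, 46.3, 84.8 and 55.3 CPM in arterial libraries and 50.3, 49.0 and 58.4 CPM in venous libraries. The groups were far apart, with the lowest coronary library more than 2 times above the highest endocardial one, and arterial replicate 2 was the highest. Pfkp was 3.49-fold lower in endocardial libraries, at a log2 fold change of -1.80 (SE 0.23, adjusted p = 2.5e-05), with within-batch differences of -1.67, -1.96 and -1.62. The other isoforms were not called. Pfkl, the liver form, ranged over 26.1 to 106 CPM in endocardial libraries, 44.1 to 101 CPM in arterial libraries and 59.3 to 124 CPM in venous libraries, with a log2 fold change of -0.22 (SE 0.48, adjusted p = 0.861). The value of Pfkl was 0.17 (adjusted p = 0.816) without endocardial replicate 1. Pfkm, the muscle form, had a log2 fold change of -0.19 (SE 0.44, adjusted p = 0.863). Per kb of exon, Pfkl was the highest isoform in each population, and Pfkp lay below Pfkm in endocardial libraries (1.22 against 1.52 CPM per kb) but above it in arterial libraries (4.64 against 2.25 CPM per kb) and venous libraries (3.92 against 1.34 CPM per kb). Exon length here is that of all annotated exons merged, 13401 bases for Pfkp and 3340 for Pfkm. The order of these isoforms depends on that length, and the transcripts in use were not determined. Whether the isoforms differed from each other in their fold change was not tested.

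Tpi1, which interconverts the 2 products of the sugar split, stood at 56.6, 75.0 and 76.4 CPM in endocardial libraries, 81.6, 131 and 104 CPM in arterial libraries and 115, 160 and 117 CPM in venous libraries. Arterial replicate 1 lay just above the highest endocardial library, and replicate 1 was the lowest in each population. Tpi1 had a log2 fold change of -0.76 (SE 0.19, adjusted p = 0.0114). Gpi1, the isomerase that follows hexokinase, stood at 52.8, 76.8 and 69.6 CPM in endocardial libraries, 79.5, 117 and 106 CPM in arterial libraries and 104, 102 and 86.4 CPM in venous libraries. The groups did not overlap, but endocardial replicate 2 and arterial replicate 1 were close. Its log2 fold change of -0.58 (SE 0.18, adjusted p = 0.0389) was the smallest of the called differences, and the call was lost at adjusted p-values of 0.145 without endocardial replicate 1, 0.0502 without endocardial replicate 2, 0.0884 without endocardial replicate 3, 0.115 without arterial replicate 2, 0.0702 without arterial replicate 3, 0.0803 without venous replicate 1 and 0.0881 without venous replicate 2.

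Hexokinases and the fructose bisphosphate regulators of the pathway were not called. Hk1, the housekeeping hexokinase, stood at 45.6, 82.6 and 104 CPM in endocardial libraries, 48.5, 90.1 and 75.8 CPM in arterial libraries and 40.5, 92.6 and 76.7 CPM in venous libraries, with complete overlap and a log2 fold change of 0.13 (SE 0.32, adjusted p = 0.877). Hk2, the hexokinase induced by insulin and hypoxia in many tissues, stood at 2.21, 3.24 and 2.99 CPM in endocardial libraries, 2.29, 4.21 and 2.43 CPM in arterial libraries and 8.70, 7.53 and 3.38 CPM in venous libraries. Venous replicates 1 and 2 were the highest, and the log2 fold change was -0.65 (SE 0.57, adjusted p = 0.566). Pfkfb3 stood at 25.9, 34.6 and 30.8 CPM in endocardial libraries, 37.1, 37.9 and 38.8 CPM in arterial libraries and 31.3, 35.6 and 32.4 CPM in venous libraries. Endocardial and venous values of Pfkfb3 overlapped, with a log2 fold change of -0.22 (SE 0.19, adjusted p = 0.553). Pfkfb4, a scarce relative, was listed at 0.611, 1.297 and 2.58 CPM in endocardial libraries, 1.99, 1.84 and 1.47 CPM in arterial libraries and 0.532, 0.926 and 0.768 CPM in venous libraries, with a log2 fold change of 0.38 (SE 1.06, adjusted p = 0.893). Aldoa, the main aldolase here, ranged over 113 to 191 CPM in endocardial libraries, 194 to 321 CPM in arterial libraries and 197 to 331 CPM in venous libraries. Its log2 fold change was -0.69 (SE 0.22, adjusted p = 0.0590), and -0.69 (SE 0.13, adjusted p = 0.00108) with the batch as a block; DESeq2 called Aldoa lower (adjusted p = 0.0247). Aldoc, the brain aldolase, was at or below 1.15 CPM in every library.

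In the lower part of glycolysis, which regains ATP, Eno1 and Pkm were lower in endocardial libraries among 8 genes. Pkm (ENSMUSG00000032294, chr9:59656368-59679375, plus strand), which encodes the pyruvate kinase of non-liver tissues, stood at 116, 201 and 220 CPM in endocardial libraries, 289, 420 and 300 CPM in arterial libraries and 263, 455 and 388 CPM in venous libraries. All endocardial values lay below all coronary ones, with endocardial replicate 1 well below its group. Pkm had a log2 fold change of -0.98 (SE 0.23, adjusted p = 0.0123); the adjusted p was 0.0574 without endocardial replicate 2, and 0.0196 without endocardial replicate 1. Eno1 (ENSMUSG00000063524, chr4:150236721-150248879, plus strand), the main enolase of most tissues, stood at 82.2, 106 and 107 CPM in endocardial libraries, 133, 186 and 188 CPM in arterial libraries and 180, 232 and 165 CPM in venous libraries. Its groups did not overlap and its log2 fold change was -0.88 (SE 0.17, adjusted p = 0.00198); the reads it shares with a copy are described below.

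Ldha (ENSMUSG00000063229, chr7:46841475-46855627, plus strand), which turns pyruvate into lactate, was the most abundant of the 42 genes per kb of exon, with counts of copies left out. It stood at 227, 398 and 425 CPM in endocardial libraries, 304, 560 and 510 CPM in arterial libraries and 444, 744 and 683 CPM in venous libraries. Replicate 1 was the lowest in each population, and the endocardial and arterial ranges overlapped. Ldha had a log2 fold change of -0.61 (SE 0.26, adjusted p = 0.183), and -0.62 (SE 0.12, adjusted p = 0.00109) with the batch as a block; without endocardial replicate 1 it was -0.38 (adjusted p = 0.357). Ldhb, the subunit that favours the reverse reaction, stood at 8.25, 9.80 and 8.55 CPM in endocardial libraries, 7.67, 11.9 and 19.1 CPM in arterial libraries and 12.7, 17.7 and 11.0 CPM in venous libraries, with overlap and a log2 fold change of -0.59 (SE 0.34, adjusted p = 0.330). Gapdh ranged over 18.3 to 49.6 CPM in endocardial libraries, 56.5 to 84.9 CPM in arterial libraries and 39.3 to 94.2 CPM in venous libraries, with a log2 fold change of -0.93 (SE 0.35, adjusted p = 0.122) and -0.99 (SE 0.19, adjusted p = 0.00104) with the batch as a block. DESeq2 called Gapdh lower (adjusted p = 0.0308), and without endocardial replicate 1 edgeR gave -0.61 (adjusted p = 0.194). Pgk1, the first ATP-yielding enzyme, stood at 138, 156 and 178 CPM in endocardial libraries, 140, 228 and 245 CPM in arterial libraries and 206, 275 and 178 CPM in venous libraries. Arterial replicate 1 fell within the endocardial range, and the log2 fold change was -0.43 (SE 0.19, adjusted p = 0.174). Pgam1 had a log2 fold change of -0.09 (SE 0.17, adjusted p = 0.829). Eno2, the neuronal enolase, was at or below 4.89 CPM in every library, with a log2 fold change of 0.50 (SE 1.12, adjusted p = 0.862). Endocardial replicate 1 held the highest value of the 9: within batches the difference was 1.56, -0.77 and -1.50, and without that library it was -1.75 (adjusted p = 0.510).

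**Figure D3:**
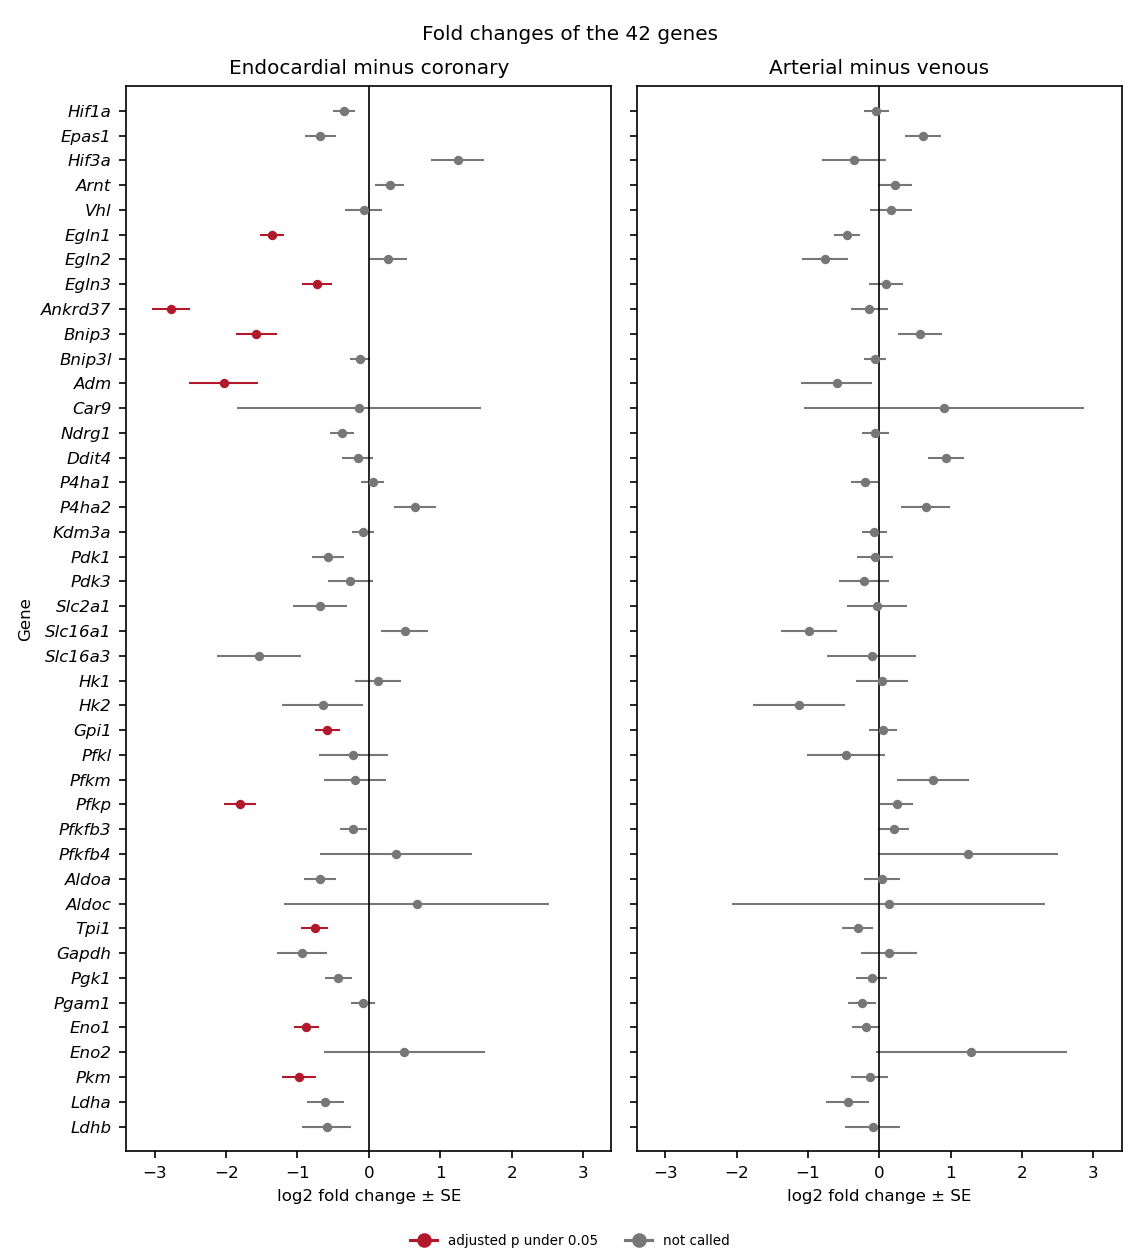
Log2 fold changes with SE of the 42 genes, ordered by role, for endocardial minus coronary (left) and arterial minus venous libraries (right); red marks an adjusted p under 0.05. On the left 10 genes are red and all lie below 0, from -0.58 for Gpi1 to -2.78 for Ankrd37, and on the right 0 genes are red.

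Several of these genes have near-identical copies elsewhere in the genome, between which short reads can be divided. Of the 42 genes 12 have at least 1 copy (90% identity over at least 200 bases and 50% of the copy's transcript), and in 3 of them the copies took over 10% of the joint count. The share was 37.3% for Pgk1, 28.5% for Gapdh and 18.6% for Eno1. Counts of the processed pseudogene Pgk1-rs7 were 78.9, 0 and 41.7 CPM in endocardial libraries, 206, 214 and 0 CPM in arterial libraries and 115, 76.3 and 195 CPM in venous libraries. Among endocardial and among arterial libraries, some thus held ample counts of Pgk1-rs7 and another held 0, while no venous library was at 0. Eno1b, a retrocopy of Eno1, had 7.0, 56.3 and 36.0 CPM in endocardial libraries, 0, 39.3 and 8.9 CPM in arterial libraries and 0.3, 38.7 and 29.4 CPM in venous libraries. With the copies' counts added, an alternative chosen after seeing the data, Eno1 had a log2 fold change of -0.59 (adjusted p = 0.167) and lost its call, while Pgk1 had -0.64 (adjusted p = 0.0150) and gained one. Gapdh then had -0.46 (adjusted p = 0.139). The values of Eno1, Pgk1 and Gapdh are therefore uncertain, whereas copies took 2.02% or less of the joint count of each other gene among the 42.

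**Figure D4:**
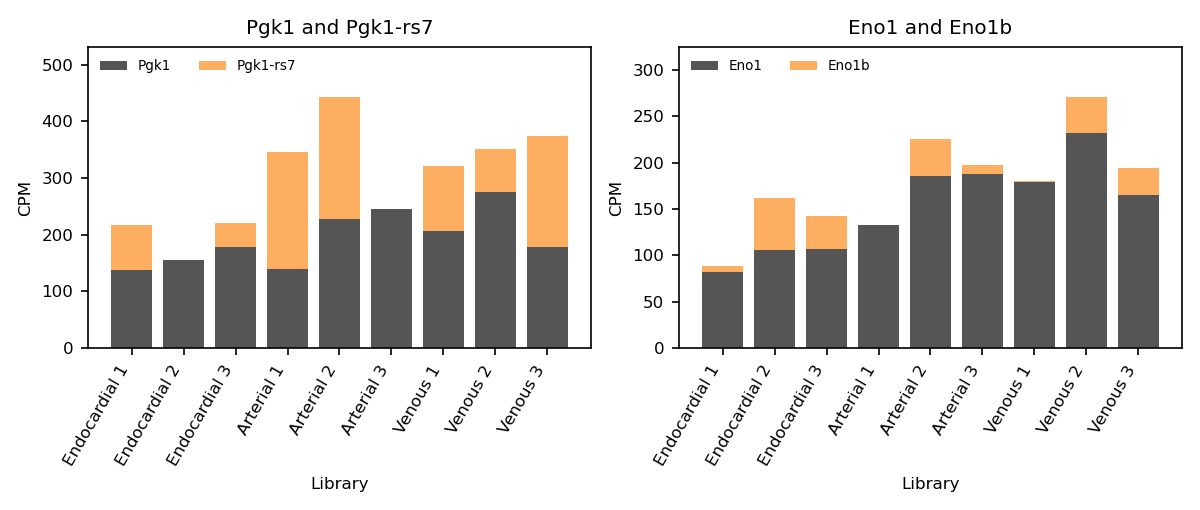
CPM of Pgk1 with its copy Pgk1-rs7 (left) and of Eno1 with its copy Eno1b (right) in the 9 libraries, stacked from 0. The copy's share varies between libraries of 1 population: Pgk1-rs7 is at 0 in arterial replicate 3 and at 214 CPM in arterial replicate 2.

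Along the pathway, levels per kb of exon varied over more than 100-fold, with Ldha at the top and Aldoc at the bottom in each population. Ldha stood at 106 CPM per kb in endocardial, 138 in arterial and 188 in venous libraries. Over all 9 libraries Pgk1, Aldoa and Pkm came next among the glycolytic genes, with 70.1, 56.3 and 35.8 CPM per kb in endocardial libraries, where Pgam1 at 44.97 stood above Pkm. The same 3 genes had 91.0, 91.8 and 67.2 CPM per kb in arterial libraries and 97.9, 89.2 and 73.8 in venous libraries. At the other end, Hk2, Eno2, Pfkfb4 and Aldoc each stayed below 1.1 CPM per kb in every population mean. Hk1 stood above Hk2, at 9.06 against 0.472 CPM per kb in endocardial libraries, and Ldha stood above Ldhb, at 106 against 5.65 CPM per kb. Neighbours in this order such as Pgk1 and Aldoa overlapped between libraries. The order depends on the length used, which was that of all annotated exons merged (2244 bases for Pgk1, 4133 for Gapdh). It also leaves out the counts of copies, which held 37.3% of the joint count for Pgk1, 28.5% for Gapdh and 18.6% for Eno1. The places of these genes, and so that of Ldha above Pgk1, are uncertain.

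**Figure D5:**
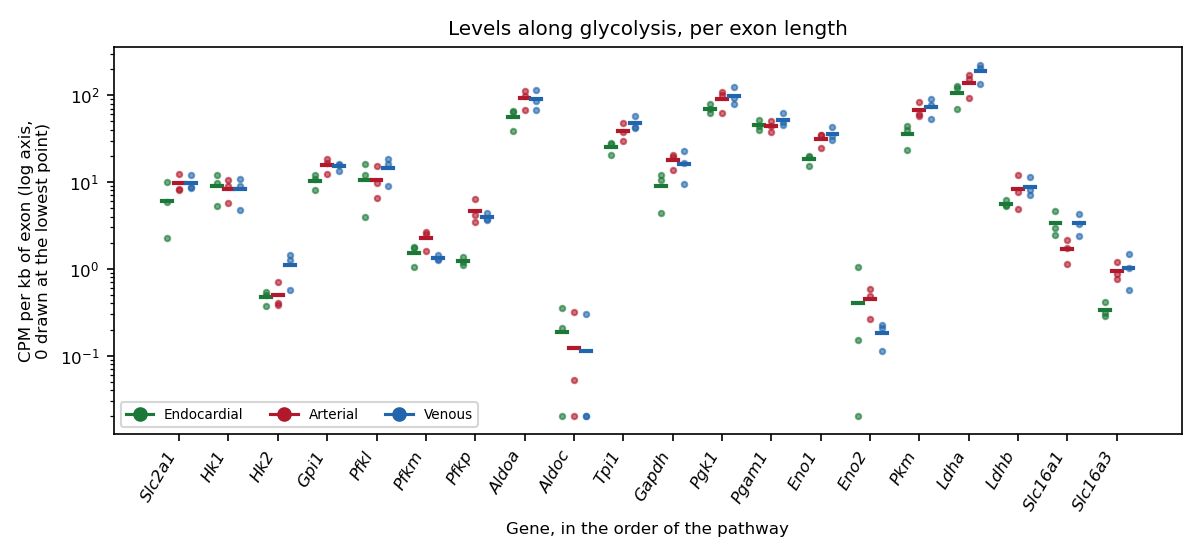
CPM per kb of exon (log axis) of 20 glycolytic enzymes and transporters in pathway order; points are libraries, bars are population means, and values of 0 are drawn at the lowest point. Ldha is the highest, and Gpi1, Pfkp, Aldoa, Tpi1, Eno1, Pkm and Slc16a3 have every endocardial point below the coronary ones, for Aldoa narrowly. Aldoa and Slc16a3 were not called against coronary libraries by edgeR with the filter and no block.

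The endocardial comparison was also made against each coronary population alone; these 2 contrasts share the endocardial libraries with each other and with the comparison above. Against arterial libraries, 9 of the 42 genes were called lower and 0 higher, where 5.92% of all genes were called lower and 5.75% higher. They were Epas1, Egln1, Egln3, Ankrd37, Bnip3, Adm, Pfkp, Eno1 and Pkm. Against venous libraries, 8 were called lower and 0 higher, where 5.81% of all genes were called lower and 4.44% higher. They were Egln1, Ankrd37, Bnip3, Adm, Pfkp, Tpi1, Eno1 and Pkm. DESeq2 called 1 gene, Hif3a, higher in each of these contrasts. At an unadjusted p under 0.05 the higher genes were Hif3a and Slc16a1 against arterial and Hif3a and P4ha2 against venous libraries. In either direction, 18 of the 42 genes passed at that level against arterial and 19 against venous libraries. Over all 17103 genes tested, 3734 passed against arterial and 3751 against venous libraries. Ankrd37 had a log2 fold change of -2.70 against arterial and -2.85 against venous libraries. For Egln1 the values were -1.13 against arterial and -1.58 against venous, for Pfkp -1.92 against arterial and -1.68 against venous libraries. Bnip3 had -1.86 against arterial and -1.29 against venous, and Adm had -1.73 against arterial and -2.33 against venous libraries. The median over the 42 genes was -0.38 against arterial libraries, where the median of all genes was -0.01, and -0.39 against venous libraries, where it was 0.10.

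Some of these pairwise calls rested on single libraries or on the scaling. Against arterial libraries, Eno1 had adjusted p-values of 0.0865 without arterial replicate 2 and 0.0612 without arterial replicate 3, and with its copies' counts added it had 0.413 against arterial and 0.157 against venous libraries. The count against arterial libraries was 4 without arterial replicate 2 and 5 without arterial replicate 3, and that against venous libraries was 5 without venous replicate 2. Egln3, at an adjusted p of 0.0452 with all libraries, was no longer called at 0.178 without endocardial replicate 2, 0.132 without endocardial replicate 3, 0.283 without arterial replicate 2, 0.0859 without arterial replicate 3 and 0.0595 without venous replicate 3, nor with 2 other scalings (0.0537 and 0.0550) or with only the 2 populations fitted (0.0719). Adm, at 0.0395, was no longer called at 0.0847 without endocardial replicate 1, 0.136 without endocardial replicate 3, 0.161 without arterial replicate 1, 0.0982 without arterial replicate 2, 0.0688 without venous replicate 1, 0.0681 without venous replicate 2 and 0.0708 without venous replicate 3. With only the 2 populations fitted, Adm had an adjusted p of 0.170. Pkm, at 0.0387, was no longer called at 0.0575 without endocardial replicate 1, 0.117 without endocardial replicate 2, 0.0705 without arterial replicate 1, 0.204 without arterial replicate 2, 0.105 without arterial replicate 3 and 0.0698 without venous replicate 3. P4ha2 was not called against venous libraries, at a log2 fold change of 0.97 (SE 0.35, adjusted p = 0.104), but it was with no filter on low counts (0.0182), with only the 2 populations fitted (0.0467) and without arterial replicate 2 (0.0470). Against venous libraries, Bnip3 had an adjusted p of 0.0627 without venous replicate 2, and Tpi1 had 0.0757 without venous replicate 2. Pkm, at 0.0213, was no longer called against venous libraries at 0.0724 without endocardial replicate 2, 0.0547 without arterial replicate 3, 0.107 without venous replicate 2 and 0.0883 without venous replicate 3. Egln1, Ankrd37 and Pfkp were called in both contrasts whichever library was left out. With the batch as a block, calls over all genes rose to 2312 from 1996 against arterial and to 2097 from 1753 against venous libraries. Among the 42 genes, the counts with the block were 13 lower and 1 higher (Hif3a) in each contrast. The genes gained against arterial libraries were Aldoa (0.00279), Gapdh (0.00136), Gpi1 (0.0354), Tpi1 (0.0258) and Hif3a (6.3e-06), with the adjusted p in brackets. Those gained against venous libraries were Aldoa (0.00506), Gapdh (0.00823), Ldha (2.5e-04), Pdk1 (0.0460), Gpi1 (just under the threshold of 0.05) and Hif3a (3.3e-04).

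Between the arterial and venous populations, 0 of the 42 genes were called by edgeR, where 1.07% of all genes were called in either direction. At an unadjusted p under 0.05 there were 5 genes: Epas1 and Ddit4, higher in arterial libraries, and Egln1, Egln2 and Slc16a1, lower. Over all 17103 genes tested, 1450 passed at that level in either direction. In simulated counts the edgeR test recovered 7% of 2-fold and 40% of 4-fold changes in this contrast, for genes drawn at random. The lack of calls is therefore not a sign of equal levels. The median log2 fold change was -0.06 over the 42 genes and 0.03 over all genes. The arterial libraries lay wholly above the venous ones for 6 genes (Epas1, Ddit4, Pfkm, Pfkfb3, Pfkfb4 and Eno2) and wholly below for 4 (Egln2, Adm, Pdk3 and Slc16a1), where 17.3% of all genes did not overlap in either direction. Epas1 averaged 594 ± 91.5 CPM in arterial libraries and 389 ± 76.4 CPM in venous libraries (SD, n = 3 each), with a log2 fold change of 0.61 (SE 0.25, adjusted p = 0.502) and within-batch differences of 0.63, 0.46 and 0.76. Ddit4 stood at 43.2, 50.05 and 52.9 CPM in arterial libraries, against 25.9, 22.3 and 28.1 CPM in venous libraries. Its groups were well apart and its log2 fold change was 0.94 (SE 0.25, adjusted p = 0.121); DESeq2 called it (adjusted p = 0.0333). Without a filter on low counts the adjusted p of Ddit4 was 0.0448, and in a fit of the 2 coronary populations alone it was 0.0395. Egln2 stood at 9.73, 15.4 and 8.75 CPM in arterial libraries, against 18.0, 21.0 and 18.4 CPM in venous libraries, with a log2 fold change of -0.76 (SE 0.32, adjusted p = 0.511). Slc16a1 stood at 7.74, 9.45 and 5.00 CPM in arterial libraries, against 19.1, 10.5 and 14.6 CPM in venous libraries, with a log2 fold change of -0.99 (SE 0.39, adjusted p = 0.464). Fibroblast markers differed widely in this contrast, with 6 of 10 called lower in arterial libraries, and their part in these values was not tested.

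Replicates of the same number also moved together in part of the set. Replicate 1 was the lowest of its population in all 3 populations for 12 of the 42 genes, where this held for 8.05% of all genes. It was the highest in all 3 for 0 of the 42, where this held for 7.31% of all genes. The 12 were Epas1, Hif3a, Bnip3l, Pdk1, Hk1, Pfkl, Pfkfb3, Aldoa, Tpi1, Gapdh, Pkm and Ldha. Pfkl, for example, stood at 26.1, 106 and 79.7 CPM in endocardial libraries, 44.1, 101 and 64.9 CPM in arterial libraries and 59.3, 124 and 108 CPM in venous libraries. The labels give the replicate number as the batch, and what the batch stands for was not given in the sources used here. Without endocardial replicate 1, 9 of the 42 genes were called lower than in coronary libraries and 1, Hif3a, higher; Gpi1 was the gene lost from the lower ones (adjusted p = 0.145).

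Other genes of the same pathways were counted from 3 further lists. Of 16 other genes that handle HIF proteins, 2 were higher and 1 lower in endocardial than in coronary libraries. Over all genes, 6.91% were called higher and 7.00% lower in this comparison. Cited2, which encodes a protein that competes with HIF factors for a co-activator, stood at 24.8, 61.4 and 55.3 CPM in endocardial libraries, 24.6, 11.7 and 11.2 CPM in arterial libraries and 17.1, 14.0 and 13.7 CPM in venous libraries. Endocardial replicate 1 was close to arterial replicate 1, and the log2 fold change was 1.62 (SE 0.30, adjusted p = 0.00126). Limd1, which encodes a scaffold that brings the hydroxylases and the product of Vhl together, had a log2 fold change of -0.92 (SE 0.18, adjusted p = 0.00177), with 41.6 ± 6.03 CPM in endocardial libraries, 79.0 ± 15.4 CPM in arterial libraries and 78.4 ± 3.17 CPM in venous libraries (SD, n = 3 each). Os9 had 0.68 (SE 0.20, adjusted p = 0.0277), and was no longer called at 0.285 without endocardial replicate 2, 0.0975 without endocardial replicate 3, 0.0746 without arterial replicate 3 and 0.0640 without venous replicate 1.

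Of 41 other HIF targets, 7 were higher and 10 lower in endocardial than in coronary libraries, and the median log2 fold change was -0.01; over all genes 6.91% were called higher and 7.00% lower. The chemokine scavenger Ackr3 was higher, at 3.35 (SE 0.16, adjusted p = 3.9e-10), while the chemokine receptor Cxcr4 was lower, at -4.90 (SE 0.30, adjusted p = 6.4e-09). Lox and Loxl2, which encode lysyl oxidases, were higher, at 2.20 (SE 0.24, adjusted p = 6.1e-06) for Lox and 1.44 (SE 0.20, adjusted p = 7.2e-05) for Loxl2. The vasoconstrictor peptide gene Edn1 was higher, at 2.14 (SE 0.27, adjusted p = 2.2e-05), and so was Rragd, a regulator of the mTOR pathway, at 2.18 (SE 0.36, adjusted p = 3.8e-04). Igfbp3, which encodes a carrier of insulin-like growth factors, was lower, at -2.17 (SE 0.19, adjusted p = 4.6e-07), and the collagen lysyl hydroxylase gene Plod1 was lower, at -1.19 (SE 0.18, adjusted p = 2.0e-04). Between coronary populations Cxcr4 and Igfbp3 were higher in arterial libraries, at 2.10 (SE 0.26, adjusted p = 3.2e-04) and 1.14 (SE 0.20, adjusted p = 0.00622). Tmem45a was lower there, at -4.03 (SE 0.93, adjusted p = 0.0480), and was no longer called in 7 of the 9 fits that left out a library, at adjusted p-values up to 0.263. With the block it stood at an adjusted p of 0.0661.

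Against single coronary populations, the 8 most clearly changed genes of this list against venous libraries also included Plod2, at -1.28 (SE 0.20, adjusted p = 3.6e-04), and Angptl4, a lipase inhibitor, at -3.17 (SE 0.47, adjusted p = 6.8e-04). Of the 41 targets, 8 were higher and 10 lower against arterial libraries, and 5 were higher and 7 lower against venous libraries. Over all genes the shares were 5.75% higher and 5.92% lower against arterial libraries, and 4.44% higher and 5.81% lower against venous libraries. Among 38 further genes of glycolysis and pyruvate use, 30 were tested. Against coronary libraries, where 6.91% of all genes were called higher and 7.00% lower, 1 of the 30 was higher and 1 lower. The lower one was Gpd2, the mitochondrial glycerol phosphate dehydrogenase, at -1.19 (SE 0.18, adjusted p = 1.5e-04); it stood at 30.6, 31.9 and 29.9 CPM in endocardial libraries, 82.5, 66.9 and 58.8 CPM in arterial libraries and 67.2, 67.4 and 79.0 CPM in venous libraries. The higher one was Slc16a7, a carrier of pyruvate and lactate, at 3.56 (SE 1.09, adjusted p = 0.0383), on levels of 4.43, 3.603 and 7.94 CPM in endocardial libraries, 0.147, 0.0576 and 2.06 CPM in arterial libraries and 0, 0.370 and 0.410 CPM in venous libraries. It was no longer called at 0.0597 without endocardial replicate 2, 0.196 without endocardial replicate 3, 0.0606 without arterial replicate 1, 0.0584 without arterial replicate 2, 0.0577 without venous replicate 1 and 0.0553 without venous replicate 3.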

How the data were processed

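RNA of 9 sorted endothelial samples (3 populations, 3 replicates each) was sequenced as single reads. The authors deposited gene-level expected counts made, per the submitters' processing notes, with CASAVA 1.8.2, cutadapt 1.3, RSEM 1.2.3 and GRCm38; the name of the deposited table adds 76, which may be the Ensembl release. Aligner and strandedness: not given in the sources used here, so reads of overlapping antisense genes cannot be told apart. RSEM divides ambiguous reads among gene copies, and 45.5% of values above 0 were not whole; values were rounded to whole counts for testing. Of 41214 features, 40254 matched a symbol (GENCODE release M21, which also gave coordinates and exon lengths). Exon length was that of all annotated exons of a gene merged.

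All 9 libraries were fitted together in edgeR 4.0.16 (R 4.3.3; TMM scaling, filter with a minimum count of 10, robust quasi-likelihood F test), with 1 mean per population and no block. CPM used TMM library sizes. SE values were taken as the size of the log2 fold change over the root of its F statistic. The script was tested on simulated counts, with 100 genes changed by each fold in each comparison. The changed genes were drawn at random from all genes tested, so the recovered shares are not those of the 42 genes. Far fewer genes were changed than were called in the endocardial comparisons of the data. For endocardial minus coronary the script recovered 26% of 2-fold and 48% of 4-fold changes. Recovery was 10% and 49% against arterial libraries, 8% and 40% against venous libraries, and 7% and 40% for arterial minus venous. A gene that was not called can therefore still differ. Members and gene lists were chosen with earlier results of these data known. Named genes were every member called in any comparison, 18 chosen by role, and of the other pathway lists all called genes or the 8 with the smallest p. Marker sums used lists chosen likewise.

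The labels' batch equals the replicate number, so that numbers pair the samples. Same-numbered libraries' deviations from their population means correlated between 0.08 and 0.17 (replicates 1), between 0.04 and 0.15 (replicates 2) and between -0.09 and 0.09 (replicates 3). Alternatives were 2 other scalings, no filter, a minimum count of 30, DESeq2 1.42.0, the block, unrounded values, only the groups compared, each library left out, and the counts of copies added (found with blastn among transcripts). Totals of 12750553 to 19474419 counts limit precision for genes under a few CPM.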

Additional observations from a re-analysis of the deposited data

How the results depend on the processing

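The tally here covers 24 of the 42 genes, which were the 11 called in any comparison and others chosen by role. It leaves out Aldoa, Gapdh, Pdk1, Ddit4, P4ha2 and Slc16a3, which gained calls in some alternatives, and the other pathway lists. Of 27 called results, all from those 11 genes, none reversed in 476 alternative values, 429 kept the call and 47 lost it. Of 69 results not called, 34 of 1224 alternative values gained a call and 51 changed sign without a call in either fit. The replicate block moved the count of the 42 genes called lower to 13 from 8 against venous and to 15 from 10 against coronary libraries. Against arterial libraries that count went to 13 from 9. The block added 1 higher gene, Hif3a, to each of these 3 comparisons. Over all genes, calls also rose, to 2097 from 1753 against venous and to 2722 from 2379 against coronary libraries. Against arterial libraries they rose to 2312 from 1996. Between arterial and venous libraries the block changed no call of the 42 genes. DESeq2 also gave 1 higher gene in each of the 4 comparisons, which was Hif3a in those with endocardial libraries and Ddit4 for arterial minus venous. With a minimum count of 30, 1 gene (Hif3a) was higher against coronary libraries, and without a filter or with only the groups compared, 1 gene (P4ha2) was higher against venous libraries. For arterial minus venous, 1 gene (Ddit4) was higher without a filter and with only the groups compared. Genes called over all genes numbered 439 without a filter and 405 with DESeq2 for arterial minus venous, against 183. Leaving out 1 library at a time gave 7 to 12 genes lower and 0 to 1 higher against coronary, 4 to 10 lower and 0 higher against arterial, and 5 to 9 lower and 0 to 1 higher against venous libraries. It gave 120 to 225 genes in all for arterial minus venous and 1130 to 1871 for endocardial minus venous, 1805 to 2493 against coronary and 1507 to 2251 against arterial libraries. The fewest lower genes were 4 without arterial replicate 2 (against arterial libraries) and 5 without venous replicate 2 (against venous libraries). The causes were not tested. Depth limits Car9, Aldoc, Eno2 and Pfkfb4, which had few counts.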
